A study of Mus musculus with 2 samples.

Results

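Cells chosen by genes of B cell precursors made up 127 of 4543 cells in droplet single-cell RNA sequencing of mouse incisor tissue, a share of 2.80% (95% Clopper-Pearson interval 2.34 to 3.32). A barcode was chosen when it had at least 500 detected genes, at most 20% of its unique molecular identifiers (UMIs, tags that each mark a captured RNA molecule) from mitochondrial genes and at most 5% from haemoglobin genes. It also needed at least 3 UMIs of Cd79a and Cd79b together and at least 2 UMIs of Vpreb3, Rag1 and Vpreb1 together. At most 2 UMIs of the macrophage genes C1qa, C1qb and C1qc were allowed, and none of the T cell genes Cd3d, Cd3e and Cd3g. The counts of these genes chose the cells, so they describe the choice and are no finding. Some other markers go against the name precursor for 55 of the 127 cells. These were cells not counted as cycling that had no UMI of Rag1, Rag2, Vpreb1, Igll1 or Dntt. Of these 55 cells 48 had a UMI of the mature B cell gene Ms4a1. The 127 cells are therefore called chosen cells, and the name precursor is used for the other 72. Those 72 include 28 cycling cells, for which no UMI of these early genes was required. Of the 28, 9 had a UMI of Rag1 or Rag2 and 12 one of Vpreb1, Vpreb2 or Igll1.

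The mice were untreated C57BL/6 animals of 4 weeks, and no transgene or mutation is named in the labels. Pulp was isolated along with dental epithelium after the jaw bone was cut away, and the labels state neither how many animals were used nor whether blood or marrow was cleared. The sample titles stand for 2 lanes whose barcodes cannot be told apart in 1 deposited matrix, which therefore counts as 1 sample. No difference below has a replicate check or a test, and all intervals cover counting error at 95% only.

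In mouse bone marrow, B cell precursors cut and join the immunoglobulin genes with the recombinase made of Rag1 and Rag2, and the polymerase Dntt adds bases at the joints. A finished heavy chain pairs with the surrogate light chain, made of Vpreb1 (or Vpreb2) and Igll1, and signals through Cd79a and Cd79b as the pre-B cell receptor. Large precursors then divide, helped by interleukin 7 through Il7r, before small ones rearrange a light chain and acquire surface genes of mature B cells. Vpreb3 encodes a related protein that binds immunoglobulin chains inside precursors.

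The promoter sequences of 4 genes of the choice and the grouping of cells, those of the surrogate light chain family and Rag1, are shown for the 250 bases before the start of each gene (RefSeq, build GRCm38.p6, 5′ to 3′ along the gene). Capitals mark matches of motifs of factors that act in B cell precursors, searched on both strands: the E-box CAGGTG, the octamer ATGCAAAT and the EBF core CCCNNGGG, which do not overlap in these windows.
Vpreb3, chr10:75948050-75948299, plus strand: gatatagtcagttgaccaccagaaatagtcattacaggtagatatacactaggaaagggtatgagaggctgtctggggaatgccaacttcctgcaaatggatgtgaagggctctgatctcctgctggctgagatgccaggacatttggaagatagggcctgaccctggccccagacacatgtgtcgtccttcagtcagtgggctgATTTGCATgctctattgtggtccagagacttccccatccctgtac
Vpreb1, chr16:16869256-16869505, minus strand: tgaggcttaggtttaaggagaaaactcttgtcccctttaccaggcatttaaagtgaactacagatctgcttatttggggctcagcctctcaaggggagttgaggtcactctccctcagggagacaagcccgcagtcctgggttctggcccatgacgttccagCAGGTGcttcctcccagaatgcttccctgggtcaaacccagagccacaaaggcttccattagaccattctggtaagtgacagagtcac
Igll1, chr16:16863986-16864235, minus strand: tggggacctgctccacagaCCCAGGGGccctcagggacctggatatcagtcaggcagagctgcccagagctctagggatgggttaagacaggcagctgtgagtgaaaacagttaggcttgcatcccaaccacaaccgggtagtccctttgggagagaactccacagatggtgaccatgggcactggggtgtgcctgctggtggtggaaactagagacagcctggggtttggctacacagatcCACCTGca
Rag1, chr2:101649533-101649782, minus strand: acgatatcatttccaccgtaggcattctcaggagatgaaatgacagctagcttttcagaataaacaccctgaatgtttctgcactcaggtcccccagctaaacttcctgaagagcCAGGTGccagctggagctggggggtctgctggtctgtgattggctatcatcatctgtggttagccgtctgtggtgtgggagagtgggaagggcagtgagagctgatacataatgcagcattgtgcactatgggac
Of 12 genes looked up (the pre-B cell receptor genes, Rag1, Rag2, Dntt, Ebf1, Pax5 and Il7r) 11 had a promoter in the table, all but Cd79b. The E-box was found in 5 of the 11 genes and in 17.2% of 32851 promoters of the same length. The octamer stood only in Vpreb3 among the 11 genes, on the reverse strand from base −45, and in 1.60% of all promoters. The EBF core stood only in Igll1, from base −231, and in 11.8% of all promoters. A match is a run of letters and not a measured binding site.

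The matrix held 68931830 UMIs over 31053 genes and 6794880 barcodes, of which 5336 had at least 500 genes and 4775 also passed the mitochondrial limit. Chosen cells had a median of 1754 UMIs (856 to 11620) and a median mitochondrial share of 11.6%, against 5958 UMIs and 7.15% in the 4416 other cells. Of 223 cells with enough Cd79a and Cd79b UMIs, 213 passed the limit on C1q genes and 211 also that on Cd3 genes.

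All 127 chosen cells had a Vpreb3 UMI, and 122 had at least 2. Rag1 was found in 48 chosen cells and Vpreb1 in 15, so the choice rested mostly on Vpreb3. Just inside the threshold, 19 chosen cells had exactly 2 UMIs of the 3 genes. Just outside it, 28 cells had exactly 1. A further 56 cells passed the other criteria with 0 UMIs of the 3 genes, and they serve below as B cells without precursor UMIs. Their sum of Cd79a and Cd79b ran from 3 to 32 UMIs with a median of 7, against 3 to 28 UMIs with a median of 12 in chosen cells. Their depth was close to that of the chosen cells, with a median of 1729 UMIs and a mitochondrial share of 13.0%.

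**Figure D1:**
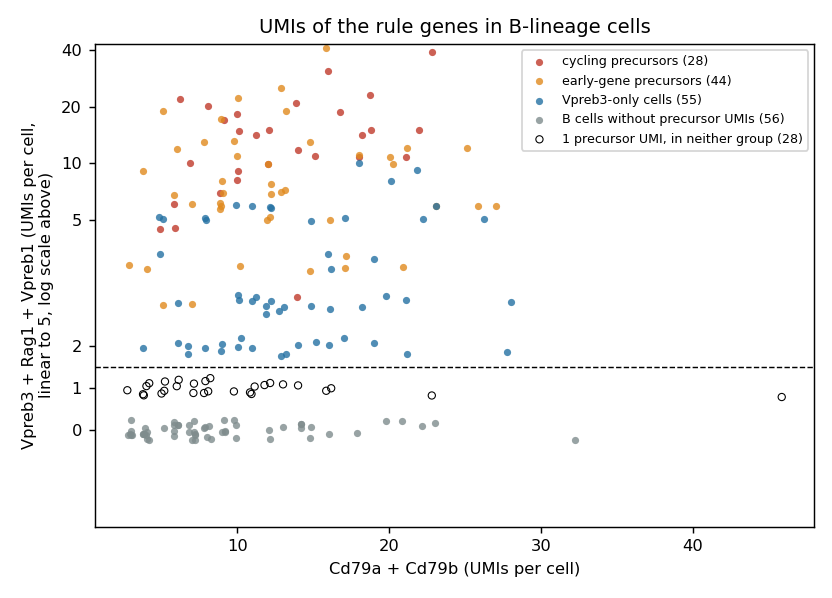
Each point is a cell, placed by its UMIs of Cd79a and Cd79b (x axis, linear) and of Vpreb3, Rag1 and Vpreb1 (y axis, linear up to 5 and logarithmic above), with small random shifts so that equal values do not hide each other. The dashed line marks the threshold: 127 chosen cells in 3 colours lie above it, and 28 cells with 1 UMI and 56 with 0 lie below.

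The chosen cells were divided by genes outside and inside the choice. Cycling precursors had at least 0.5% of their UMIs from 42 genes of S and G2/M phase. The other cells were divided into early-gene precursors, with at least 1 UMI of Rag1, Rag2, Vpreb1, Igll1 or Dntt, and Vpreb3-only cells with none of these 5 genes. Cycling precursors numbered 28 (22.1%, 15.2 to 30.3), early-gene precursors 44 (34.6%, 26.4 to 43.6) and Vpreb3-only cells 55 (43.3%, 34.6 to 52.4). Median depth was 4246 UMIs in cycling, 1700 in early-gene and 1500 in Vpreb3-only cells, and median mitochondrial shares were 7.84%, 12.8% and 13.3% in the same order.

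The name precursor was checked against markers. Vpreb3-only cells had no UMI of Rag1, Rag2, Vpreb1, Igll1 or Dntt by construction. Of these 55 cells 48 had a UMI of Ms4a1, which encodes the mature B cell antigen CD20. Ms4a1 was found in 1 of 28 cycling precursors, in 6 of 44 early-gene precursors and in 38 of 56 B cells without precursor UMIs. At least 5 UMIs of Cd74, the MHC class II invariant chain, were found in 48 of 55 Vpreb3-only cells, against 1 of 28 cycling and 9 of 44 early-gene precursors. Ms4a1 and Cd74 go against the name precursor for the 55 Vpreb3-only cells, and these cells are called by their rule. The mature B marker list also held Fcer2a, Cr2, Ighd and H2-Aa. Fcer2a was found in 3 and Cr2 in 1 of 55 Vpreb3-only cells, against 7 and 4 of 56 B cells without precursor UMIs. The whole list summed to 3199 CPM in Vpreb3-only cells, against 2216 CPM in those B cells and 341 CPM in early-gene precursors. Within that sum Ms4a1 had 1883 CPM in Vpreb3-only cells against 762 CPM in those B cells. Fcer2a had 40.5 against 62.3 CPM and Cr2 10.1 against 27.7 CPM, with overlapping intervals, and Ighd was also lower in Vpreb3-only cells. The sum therefore does not rank the 2 groups by maturity. Of the 5 markers of B cell precursors (Vpreb3, Ebf1, Rag1, Mzb1, Cd79b) 3 were genes of the rule and check nothing. Ebf1 and Mzb1, outside the rule, had UMIs in all 3 groups, but also in 53 and 18 of 56 B cells without precursor UMIs. Presence of these genes therefore does not set precursors apart. Their levels in Vpreb3-only cells were 2865 and 273 CPM, against 1800 and 173 CPM in those B cells, with overlapping intervals for Mzb1.

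Between cycling and other chosen cells there was a gap in the share of cell cycle UMIs. The lowest cycling cell had 0.604% and the highest other chosen cell 0.263%, with 47 chosen cells at 0, although 12 cells lay between 0.25% and 1%. None of 56 B cells without precursor UMIs reached 0.5%, which allows a share of up to 6.38%, and 4 of 84 T cells did. Among all other cells of the tissue 375 of 4416 did (8.49%, 7.69 to 9.35). When each cell was thinned to 1000 UMIs, which left out 3 chosen cells, 28 of 124 reached it (22.6%, 15.6 to 31.0). The share moved to 13.4% with a cut at 1%, to 67.5% of 40 chosen cells with at least 1000 genes and to 47.6% of 42 chosen cells with at most 10% mitochondrial UMIs.

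**Figure D2:**
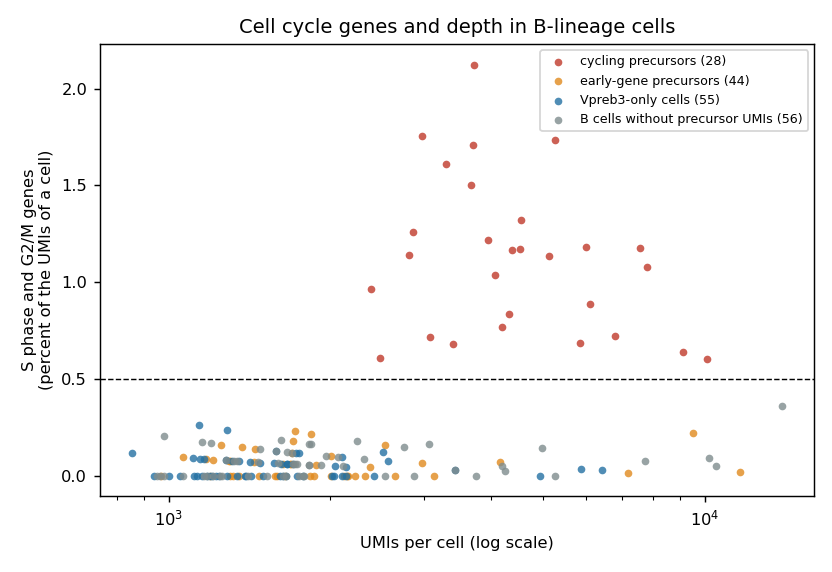
Each point is a cell of the B lineage, placed by its UMIs (x axis, log scale) and by the percent of its UMIs from 42 genes of S and G2/M phase (y axis). The 28 cycling precursors lie between 0.604% and 2.12%, above the dashed line at 0.5%, all with at least 2390 UMIs, and no B cell without precursor UMIs lies above it.

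Levels are UMIs summed over a group and scaled to the total of that group (CPM, UMIs per 1000000), with exact Poisson intervals. In a comparison a gene needed 30 UMIs summed over both groups to be measured, and a ratio of 2-fold counted as higher or lower. Where either side had 0 UMIs a floor of 3 UMIs over that group gave a bound.

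Surrogate light chain genes were present in cycling and early-gene precursors at overlapping levels, and they were among the genes that chose the early-gene group. Igll1, the constant-like chain of the surrogate light chain, had 381 CPM in cycling precursors (283 to 501), 428 CPM in early-gene precursors (311 to 575) and 0 UMIs in B cells without precursor UMIs. It lay in 11 of 28 cycling and 8 of 44 early-gene precursors, with up to 13 UMIs in 1 cell. Vpreb1, its variable-like partner, had 246 CPM in cycling precursors (170 to 346) and 458 CPM in early-gene precursors (336 to 609), and was found in 8 and 7 cells. A single cell held 36.2% of the early-gene Vpreb1 UMIs. Vpreb1 and its near-copy Vpreb2 shared 669 of 686 aligned bases (97.5%) of their GENCODE M21 transcripts, so the assignment of reads between them is uncertain. Any of Vpreb1, Vpreb2 or Igll1 was found in 21 of 127 chosen cells (16.5%, 10.5 to 24.2).

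A Rag1 or Rag2 UMI was found in 9 of 28 cycling and 43 of 44 early-gene precursors, and in no Vpreb3-only cell by construction. Rag1, the cutting subunit, had 112 CPM in cycling precursors (62.7 to 185) and 984 CPM in early-gene precursors (801 to 1195). Rag1 was part of the choice of cells and of the early-gene group, of which 41 of 44 had it, so these values are a description. Against all 99 non-cycling chosen cells, with 501 CPM, the log2 ratio of cycling cells was −2.16 (−3.05 to −1.37). Rag2, its partner, had only 2 UMIs in cycling and 6 in early-gene precursors. Dntt had 11 UMIs in 4 cycling and 15 UMIs in 5 early-gene precursors, and 0 in B cells without precursor UMIs. A Rag1 or Rag2 UMI and a surrogate light chain UMI occurred together in 12 chosen cells, 4 of them cycling and 8 early-gene.

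Vpreb3 had 2673 CPM in cycling (2403 to 2965), 2668 CPM in early-gene (2362 to 3004) and 2015 CPM in Vpreb3-only cells (1745 to 2315). It was 0 of 223814 UMIs in 84 T cells and 0 in 74 endothelial cells, while droplets of 1 to 20 UMIs, taken as the level of free RNA, had 23.3 CPM.

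**Figure D3:**
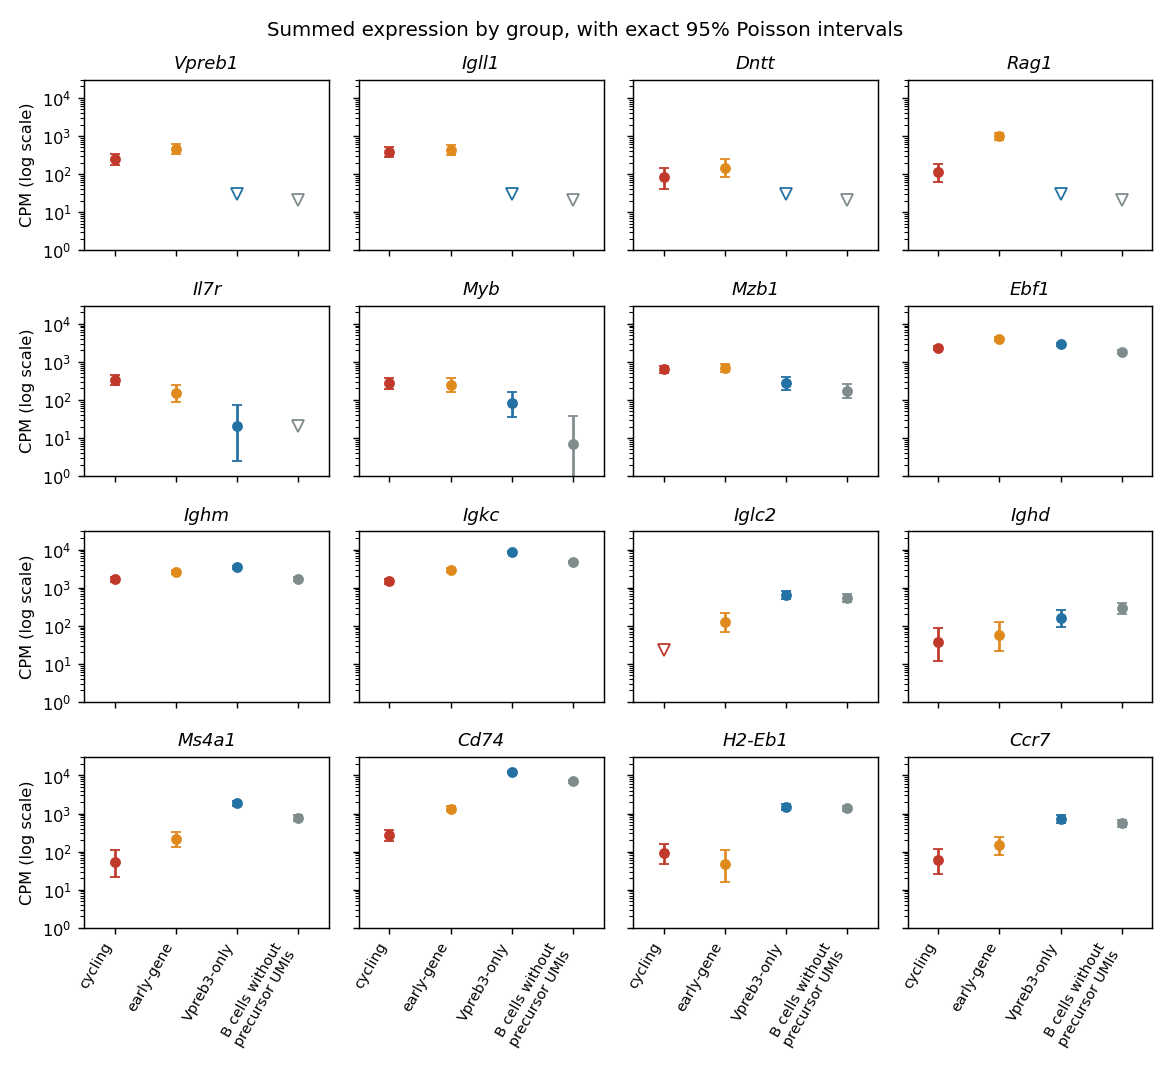
Levels of 16 genes in CPM (log scale) in cycling, early-gene and Vpreb3-only cells and in B cells without precursor UMIs, as points with exact 95% Poisson intervals. Open triangles mark groups with 0 UMIs at the floor of 3 UMIs. The split fixed Vpreb1, Igll1, Dntt and Rag1 at 0 UMIs in the Vpreb3-only group, and Vpreb1 and Rag1 in the B cells without precursor UMIs. Ms4a1, Cd74, H2-Eb1 and Ccr7 are higher in these 2 groups than in the cycling and early-gene groups.

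Cycling precursors, set against non-cycling chosen cells, had more Il7r and Hmgb2 and less RNA of light chains, MHC class II and mature surface antigens. Of the 99 non-cycling chosen cells 55 were Vpreb3-only, so these ratios are not between groups of precursors alone. Outside the cell cycle lists 78 listed genes were measured. Of these 6 were higher (11.1% of all 1420 measured genes were) and 25 were lower (12.9% of all measured genes were), with a list median of −0.58 on the log2 scale against 0.0041 over all measured genes. Among the 25 were Rag1, Cd79a and Cd79b, genes of the rule, which are given as a description. The share of listed genes that were lower was above that background and the share that were higher below it. The lists were chosen with earlier results of these data known, so these shares are a description. With at least 1000 genes per cell 11 listed genes were higher and 10 lower. With at most 10% mitochondrial UMIs 8 were higher and 10 lower. Median depth was 4246 UMIs in cycling and 1635 UMIs in non-cycling chosen cells, and the part of depth and mitochondrial share in these ratios was not tested.

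Il7r, the interleukin 7 receptor chain, had a log2 ratio of 1.91 (1.09 to 2.79) in this contrast. It had 336 CPM in cycling precursors (245 to 450) against 89.4 CPM in non-cycling chosen cells. It was found in 20 of 28 cycling, 13 of 44 early-gene and 2 of 55 Vpreb3-only cells and in 0 of 56 B cells without precursor UMIs. After thinning to 1000 UMIs the shares were 32.1% of 28 cycling (15.9 to 52.4), 18.6% of 43 early-gene (8.39 to 33.4) and 1.89% of 53 Vpreb3-only cells (0.0478 to 10.1). T cells, which use the same receptor, had 34.5%, and endothelial cells, which should lack it, had 0 of 73. The thinned intervals of cycling and early-gene precursors overlap.

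Of 4 measured genes of recombination and end joining 2 were higher and 1, Rag1, was lower. Hmgb2, a chromatin protein that assists recombinase cutting and is itself cell cycle regulated, had 5936 CPM in cycling against 258 CPM in non-cycling chosen cells, a log2 ratio of 4.52 (4.12 to 4.96). Hmgb1 had 3032 against 357 CPM, a ratio of 3.08 (2.72 to 3.47). Of 5 measured pre-B cell receptor genes 2 were lower, the signalling chains Cd79a at −1.42 (−1.68 to −1.17) and Cd79b at −1.15 (−1.38 to −0.92). Both are genes of the rule, which asked for the same number of UMIs in shallow and deep cells, and with at least 1000 genes per cell they came to −0.076 and 0.12. Igll1 had a ratio of 0.80 (0.19 to 1.42) and Vpreb3 one of 0.19 (−0.015 to 0.39).

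Transcription factors of the B lineage mostly stayed within 2-fold, with 1 higher and 2 lower of 18. Lef1 was higher at 1.14 (0.043 to 2.28), while Foxo1, which activates the Rag genes, was lower at −1.20 (−2.32 to −0.20) and Pax5, the factor that commits cells to the B lineage, at −1.08 (−1.99 to −0.25). Ebf1, which acts with Pax5, had a median of 23.4 UMIs per 10000 in cycling cells (3.26 to 57.7), against 49.0 in early-gene (3.94 to 118) and 26.5 in Vpreb3-only cells (0 to 111). Pax5, Foxo1 and Cd79b took the opposite sign when cells needed at least 1000 genes, with ratios of 0.70 for Pax5, 2.48 for Foxo1 and 0.12 for Cd79b. Lef1 came to 0.18 with a cell cycle cut of 1%. The limit of at least 1000 genes left 40 chosen cells, 67.5% of them cycling.

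Immunoglobulin and MHC genes were lower in cycling precursors than in all non-cycling chosen cells, 55 of which were Vpreb3-only. Igkc, the kappa light chain constant gene, had 1456 CPM against 5788 CPM in non-cycling chosen cells, a log2 ratio of −1.99 (−2.22 to −1.77) that came to −0.51 with at least 1000 genes per cell. The lambda genes Iglc1 and Iglc2 had 0 UMIs in cycling cells against 62 and 77 UMIs. Ighm, the mu heavy chain, was measured in all 28 cycling cells at 1665 CPM (1454 to 1899) against 2963 CPM, a ratio of −0.83 (−1.06 to −0.61). All 4 measured MHC class II genes were lower, with Cd74, the invariant chain, at 269 CPM against 6711 CPM and a ratio of −4.64 (−5.16 to −4.17), and 1 cell held 77.8% of the Cd74 UMIs of cycling precursors. H2-Eb1 had a ratio of −3.06 (−4.05 to −2.22). A UMI of H2-Aa, H2-Ab1 or H2-Eb1 was found in 19 of 28 cycling, 8 of 44 early-gene and 36 of 55 Vpreb3-only cells. These counts were not thinned, and cycling cells were deeper. The MHC class II ratios therefore do not describe cycling against early-gene precursors. Of 7 measured mature surface genes 6 were lower, led by Ms4a1 at −4.30 (−5.64 to −3.24), whose 7 UMIs in cycling cells all came from 1 cell, and 1 was higher, the activation antigen Cd69 at 1.09 (0.13 to 2.07).

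Homing and early surface genes divided in the same comparison. Cxcr4, the receptor for the marrow chemokine Cxcl12, had a log2 ratio of −0.59 (−1.01 to −0.18). Its level was 545 CPM in cycling precursors (427 to 685) against 819 CPM in non-cycling chosen cells. Ccr7, which guides cells to lymph nodes, was the lower one of 4 measured homing genes, at −2.84 (−4.09 to −1.79), and came to −0.78 with at least 1000 genes per cell. Of 3 measured early surface genes 2 were lower, Ly6d at −2.66 (−3.02 to −2.33) and Cd2 at −2.55 (−4.24 to −1.22), the second of which came to −0.66 under the same limit. Cd24a, an antigen of immature B cells, had 1083 CPM against 606 CPM, a ratio of 0.84 (0.48 to 1.20).

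Of 10 measured genes of B cell receptor signalling 2 were lower, the kinase Lyn at −1.87 (−2.81 to −1.04) and the phosphatase Ptprc at −1.53 (−2.49 to −0.68). Of 6 genes of the endoplasmic reticulum and secretion 1 was lower, Xbp1 at −1.79 (−3.53 to −0.39), and of 8 immediate early genes 1 was higher, Hspa1a at 1.59 (0.74 to 2.49). With at least 1000 genes per cell Lyn came to −0.87, Ptprc to −0.98 and Hspa1a to 0.49, and with a cell cycle cut of 1% Xbp1 came to −0.99. Both measured apoptosis genes stayed within 2-fold, Mcl1 at −0.58 and Bax at −0.65.

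**Figure D4:**
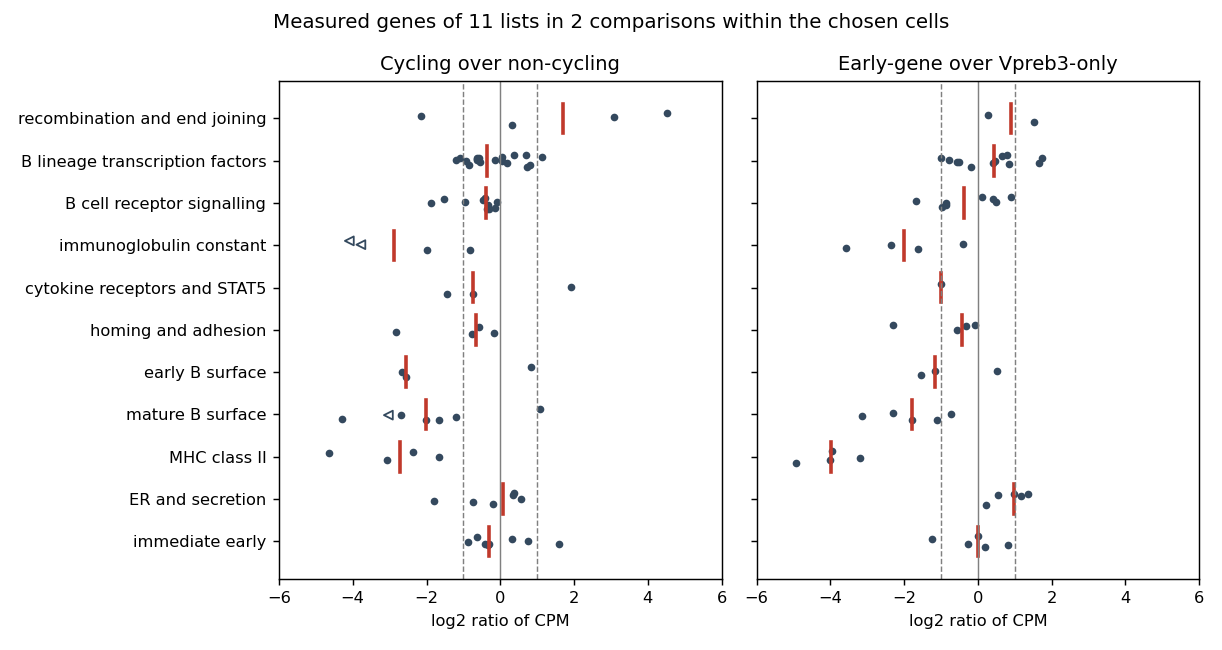
Each point is a measured gene of a list, placed by its log2 ratio of CPM in cycling over non-cycling chosen cells (left) and in early-gene over Vpreb3-only cells (right), with list medians as red bars and 2-fold as dashed lines. Open triangles are bounds for genes with 0 UMIs in cycling cells, and genes that made a split are left out. All 4 MHC class II genes lie below −1 on both sides.

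Early-gene precursors, set against Vpreb3-only cells, had less RNA of MHC class II, light chains and mature surface antigens. They had more of Sox4, Myb, Hmgb2, Mzb1 and Sec11c. Both groups were below the cell cycle cut of 0.5%, with highest shares of 0.233% and 0.263%. Their median depths were similar at 1700 and 1500 UMIs. Of 56 listed genes measured outside the split 5 were higher (8.22% of all 803 measured genes were) and 16 were lower (9.09% of all measured genes were), with a median of −0.46 on the log2 scale against −0.056 over all measured genes. The 16 lower genes were a larger share of the list than of all genes, and the 5 higher ones a share near the background. These shares too are a description, since the lists were chosen with earlier results of these data known.

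All 4 measured MHC class II genes were lower, with a median log2 ratio of −3.99. H2-Eb1, a beta chain of the MHC class II molecule, had a ratio of −4.92 (−6.57 to −3.67). Its level was 48.7 CPM in early-gene precursors (15.8 to 114) against 1478 CPM in Vpreb3-only cells (1248 to 1738). Cd74 had 1354 CPM in early-gene precursors (1138 to 1598) against 12280 CPM in Vpreb3-only cells, a ratio of −3.18 (−3.45 to −2.93). In single early-gene precursors Cd74 ran from 0 to 166 UMIs per 10000 with a median of 5.61. In Vpreb3-only cells it ran from 0 to 330 with a median of 108, so the groups overlapped. Median Cd74 was 0 in cycling precursors and 84.4 in B cells without precursor UMIs.

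Of 4 measured immunoglobulin constant genes 3 were lower. Iglc1 had a log2 ratio of −3.57 (−5.24 to −2.26) and Iglc2 one of −2.36 (−3.34 to −1.48), and reads of these lambda genes may be shared between near-identical copies. Igkc had 2853 CPM in early-gene precursors (2536 to 3199) against 8839 CPM in Vpreb3-only cells (8262 to 9445). Its ratio was −1.63 (−1.83 to −1.44). Ighm was within 2-fold at 2551 against 3392 CPM and a ratio of −0.41 (−0.65 to −0.17). Ighd, the delta heavy chain of mature naive cells, had 6 UMIs in early-gene and 16 UMIs in Vpreb3-only cells, too few for a ratio under the limit of 30.

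Of 5 measured mature surface genes 4 were lower. Ms4a1 had a log2 ratio of −3.14 (−3.85 to −2.50) with 214 against 1883 CPM, and Cd52, a small surface antigen of lymphocytes, one of −2.30 (−2.77 to −1.86). Ccr7 was lower at −2.30 (−3.21 to −1.48), and Cxcr4 had 799 CPM in early-gene precursors against 840 CPM in Vpreb3-only cells. Ly6d had 1938 against 5609 CPM, a ratio of −1.53 (−1.77 to −1.30), and Cd2 one of −1.16 (−2.19 to −0.20). Cd2 came below 2-fold in most alternatives, at −0.92 with at most 10% mitochondrial UMIs and −0.87 by the mean over cells. Ptprc was the lower one of 8 measured signalling genes, at −1.67 (−2.62 to −0.81). Tnfrsf13c, the BAFF receptor that supports mature B cell survival, had a ratio of −0.99 (−1.63 to −0.37).

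Among 12 measured transcription factors 2 were higher. Sox4 had 302 CPM in early-gene precursors (205 to 429) against 91.1 CPM in Vpreb3-only cells, a log2 ratio of 1.73 (0.62 to 2.98). Myb had 253 against 81.0 CPM, a ratio of 1.64 (0.46 to 3.00). Sox4 and Myb are factors of early lymphoid development. Ebf1 was within 2-fold at 0.48 (0.25 to 0.70), as was Pax5 at −0.57 (−1.45 to 0.28). Mzb1, an endoplasmic reticulum chaperone for immunoglobulin assembly, had 701 against 273 CPM, a ratio of 1.36 (0.70 to 2.05). A single cell held 25% of the Mzb1 UMIs of early-gene precursors. Sec11c, a subunit of the signal peptidase, had a ratio of 1.17 (0.53 to 1.83). Hmgb2 had a ratio of 1.53 (0.59 to 2.56). With at least 1000 genes per cell Mzb1 came to 0.997, just below 2-fold, Sec11c to −0.49 and Cd2 to −0.68. With at least 3 UMIs of the rule genes Myb came to 0.99, and with at most 10% mitochondrial UMIs Hmgb2 came to −0.47.

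RNA of another cell type lay in 3 early-gene precursors, and in 1 cycling and 0 Vpreb3-only cells, that had more than 1% of their UMIs from markers of mesenchyme, dental epithelium, macrophages or neutrophils. The largest of them had 11620 UMIs, and 5183 UMIs of epithelial markers were found in 1 early-gene cell. All 6 dental epithelium markers had a UMI in early-gene precursors, summing to 51580 CPM with a cell median of 844 CPM, against 942 CPM with a cell median of 936 CPM in Vpreb3-only cells, where Krt5 was at 0. Without these cells, a choice made after seeing the data, 9 listed genes were higher and 16 lower, with Cd74 at −2.91, Igkc at −1.33 and Ms4a1 at −2.79 on the log2 scale. The mean over cells, each scaled to its own total, gave 8 higher and 13 lower.

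**Figure D5:**
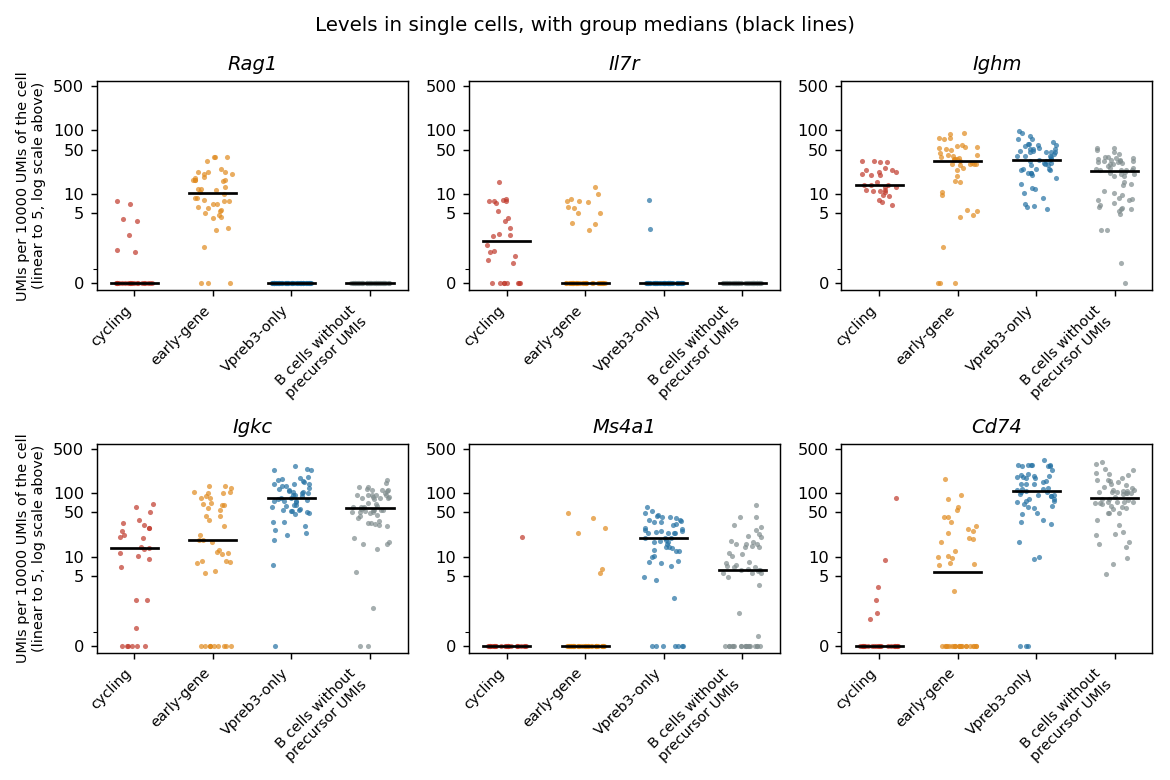
Each point is a cell and gives its UMIs of a gene per 10000 UMIs (linear up to 5, logarithmic above), with black lines at group medians. Rag1 is centred on early-gene precursors with a median of 10.4, Ighm is present in all 4 groups, and Ms4a1 and Cd74 have medians of 19.5 and 108 in Vpreb3-only cells.

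Igkc RNA was found in all 3 groups of chosen cells, and Ms4a1 mainly in the Vpreb3-only group. At least 3 UMIs of Igkc were found in 20 of 28 cycling, 27 of 44 early-gene and 53 of 55 Vpreb3-only cells and in 53 of 56 B cells without precursor UMIs. At least 3 UMIs of the lambda constant genes in sum were found in 0, 4 and 19 chosen cells of the same groups and in 19 B cells without precursor UMIs. Thinned to 1000 UMIs, Igkc was found in 67.9% of cycling (47.6 to 84.1) and 65.1% of early-gene precursors (49.1 to 79.0), against 0 of 84 T cells and 0 of 73 endothelial cells. Ighm was found in 78.6% of cycling precursors and 79.1% of early-gene precursors after thinning, against 5.95% of T cells and 1.37% of endothelial cells.

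Il7r and Ms4a1 occurred together in 2 of 127 chosen cells, both Vpreb3-only, while 35 chosen cells had Il7r and 55 had Ms4a1. Rag1 or Rag2 and Ms4a1 occurred together in 6 early-gene precursors. Scrublet, which scores barcodes by their likeness to simulated pairs of cells, gave 2 early-gene precursors and 4 B cells without precursor UMIs a score above 0.15, and these cells were kept.

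Chosen cells as a whole, set against B cells without precursor UMIs, had more RNA of the cell cycle, of Myb and Igll1, and less of MHC class II, Ighd and immediate early genes. The choice of cells made this contrast, so the values are a description. Deep cells weigh more in the sums: the 28 cycling cells gave 133924 of the 335385 UMIs. The sums therefore need not describe each group. Median Cd74 was 108 UMIs per 10000 in Vpreb3-only cells, against 84.4 in B cells without precursor UMIs. A UMI of H2-Aa, H2-Ab1 or H2-Eb1 was found in 36 of 55 Vpreb3-only cells, against 50 of 56 of those B cells. Of 116 listed genes measured outside the rule 35 were higher (12.1% of all 2014 measured genes were) and 18 were lower (5.01% of all measured genes were). All 12 measured G2/M genes and 2 of 4 S phase genes were higher, among them Ube2c at a log2 ratio of 6.55 (4.05 to 11.9) and Mki67 at 5.19 (2.68 to 10.5) with 85 UMIs against 1 UMI. Of 24 transcription factors 8 were higher and 0 lower, led by Myb with 71 UMIs against 1 UMI and a ratio of 4.93 (2.41 to 10.3) and by Hhex at 1.96 (0.25 to 4.32). Ebf1 had a ratio of 0.74 (0.54 to 0.94) and Pax5 one of 0.68 (−0.087 to 1.52).

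Igll1, with 95 UMIs against 0, was at least 13.6-fold higher and Il7r, with 63 UMIs against 0, at least 9.04-fold higher. Of 15 signalling genes 3 were higher, the adaptor Dok3 at 2.43 (1.24 to 3.92), the adaptor Blnk at 1.37 (0.70 to 2.11) and the coreceptor Cd72 at 1.13 (0.52 to 1.78), and Bank1 was lower at −1.40 (−2.50 to −0.31). Of 6 secretion genes 3 were higher, Herpud1 at 2.57 (1.65 to 3.66), Sec11c at 1.92 (1.27 to 2.65) and Mzb1 at 1.66 (1.06 to 2.33). Against B cells with 0 or 1 UMI of the precursor genes Sec11c came to 0.60 and Mzb1 to 0.77. Of 4 early surface genes Cd24a was higher at 1.72 (1.20 to 2.27).

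Lower in chosen cells were 3 of 6 immunoglobulin constant genes, with Ighd at 80.5 against 291 CPM and a log2 ratio of −1.85 (−2.61 to −1.12) and Iglc2 at −1.25 (−1.72 to −0.78). Igkc, at 4058 against 4798 CPM, and Ighm, at 2445 against 1682 CPM, were within 2-fold. Of 7 MHC class II genes 4 were lower, H2-Eb1 at −1.51 (−1.82 to −1.21), H2-Aa at −1.46 (−1.81 to −1.11), H2-Ob at −1.45 (−2.23 to −0.68) and H2-DMb2 at −1.12. Of 6 homing genes 2 were lower, the integrin Itgb1 at −1.37 (−2.37 to −0.37) and Ccr7 at 280 against 561 CPM, while Cxcr4 had 710 CPM (622 to 806) against 450 CPM (347 to 574). Of 11 immediate early genes, which are switched on within a short time of many stimuli, 7 were lower and 0 higher, led by Nr4a1 at −3.17 (−4.50 to −2.02) and Fos at −2.68 (−4.05 to −1.45). With at least 1000 genes per cell Ighd came to −0.21 and none of the 4 MHC class II genes stayed lower by 2-fold, with H2-Aa at −0.91, H2-Eb1 at −0.80, H2-DMb2 at −0.79 and H2-Ob at 0.039. With at most 10% mitochondrial UMIs none did either, with H2-Aa at −0.46, H2-DMb2 at −0.44, H2-Eb1 at 0.088 and H2-Ob at 1.02. Itgb1 came to −0.58 without cells of a Scrublet score above 0.15.

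Outside the lists, the genes with the highest ratio to B cells without precursor UMIs were Atp1b1, H2afx, Tifa, Mgst1, Myl4, E2f2, Cnp, Ezh2, Lmnb1, Lrmp, Socs1 and Stambpl1. Atp1b1, a subunit of the sodium pump, had 85 UMIs in chosen cells against 0. H2afx, the histone variant that marks broken DNA, had 163 UMIs against 2 UMIs, a log2 ratio of 5.13 (3.26 to 8.19), and 157 of the 163 UMIs lay in the 28 cycling cells. Socs1, an inhibitor of cytokine signalling, had 84 against 5 UMIs, a ratio of 2.86 (1.58 to 4.52). Ezh2, the methyltransferase of the Polycomb complex, had a ratio of 2.99 (1.58 to 4.91).

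Against all 4416 other cells of the tissue, which include the B cells outside the choice, 122 of 218 listed genes measured outside the rule were higher (14.4% of all 14003 measured genes were) and 29 were lower (20.8% of all measured genes were). These lists were made for B cells, and the contrast is again the one the rule made. Among signalling genes 19 of 21 were higher, with Blk at a log2 ratio of 6.89 (5.98 to 7.80), and Cd81, which many cell types express, was lower at −1.24 (−1.57 to −0.92). Of 28 transcription factors 17 were higher and 3 lower, with Pax5 at 7.37 (6.79 to 7.96) and Pou2af1 at 7.02 (6.47 to 7.58), and Id2 lower at −2.86 (−4.07 to −1.88). The cytokine receptors Tnfrsf13c at 7.08 (6.68 to 7.48) and Il7r at 5.07 (4.64 to 5.49) were higher. Igha, the alpha heavy chain of plasma cells, had 0 UMIs in chosen cells, against 1092 UMIs in other cells, and Jchain had 1 UMI against 901.

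The genes outside lists and markers with the highest ratio to all other cells were Fcrla, Cecr2, Myl4, Ptprcap, Rhoh, Cnp, Gm30211, Siglecg, Slamf6, Lrmp, Tifa and Chchd10. Fcrla, an Fc receptor-like protein of B cells, had 373 CPM against 1.82 CPM, a log2 ratio of 7.68 (7.23 to 8.14). Myl4, known as the atrial light chain of myosin, had 331 against 2.68 CPM, a ratio of 6.95 (6.54 to 7.36), and lay in 40.9% of chosen cells. Lrmp, an endoplasmic reticulum membrane protein of lymphocytes, had 253 against 5.51 CPM, a ratio of 5.52 (5.14 to 5.90).

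Markers of other cell types were counted in chosen cells. Those of dental epithelium had 6165 UMIs in 105 of 127 cells, of which 5183 lay in 1 cell, at a cell median of 836 CPM, against 942 CPM in B cells without precursor UMIs. Of 8 T cell markers 3 had a UMI, 5 UMIs in all, with the Cd3 genes at 0 by the rule and Cd4 and Cd8a at 0, and 2 of 5 markers of cytotoxic lymphocytes had 3 UMIs. Plasma cell markers had 49 UMIs with Prdm1 at 0, and those of plasmacytoid dendritic cells 32 UMIs with Siglech, Ccr9 and Klk1 at 0. Of 5 endothelial markers only Pecam1 had UMIs, 19 in all, and platelet markers had 2. Neutrophil markers had 22 UMIs with Ltf, Mpo, Elane and Retnlg at 0, and macrophage markers 70 UMIs, of which 36 were in 1 cell. Haemoglobin and other erythroid markers had a UMI in 122 of 127 chosen cells at a cell median of 1596 CPM, against 1737 CPM in B cells without precursor UMIs and 1498 CPM in T cells, with Alas2 at 0 in chosen cells. Mesenchymal markers had 269 UMIs in 27 chosen cells, 201 of them in 1 cell, and a cell median of 0 CPM in chosen cells and in B cells without precursor UMIs.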

How the data were processed

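Single cells of mouse incisor were captured with a droplet 3′ kit, and per the file headers the authors deposited UMI counts per gene and barcode (format version 2, software version 3.0.2) as 1 unfiltered matrix. Counting at the 3′ end reads little of variable segments. Genome build mm10, Seurat and R 3.4.1 stand in the submitters' processing notes, while the aligner and annotation were not given in the sources used here. No sample columns were left unused (0).

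Counts were summed per group and scaled to CPM in Python 3.11.15 with numpy 2.4.6, scipy 1.17.1, pandas 2.3.3 and scanpy 1.11.5. Intervals were exact Poisson for levels, exact conditional binomial for ratios and Clopper-Pearson for shares. With 1 sample no test was made. Calculations were tested on simulated data.

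The lists (16, with 239 genes, and 13 marker lists) and the members were chosen with earlier results of these data known. Named genes are the 2 to 4 with the largest ratios per list, the 12 leading genes of a contrast (5 CPM added, at least 30 UMIs, in at least 25% of chosen cells) and a fixed set of B lineage genes. T cells had at least 2 Cd3 UMIs, no Cd79a or Cd79b UMI, at most 2 C1q UMIs and at most 10 UMIs of S100a8, S100a9 and Lyz2. Endothelial cells had at least 4 UMIs of Emcn, Cdh5, Kdr and Plvap and fewer than 20 of Col1a1 and Col1a2.

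Doublets were scored with Scrublet on 4775 barcodes (expected share 5%). Its automatic threshold called 1 (0.0209%), so it had not worked; a score above 0.15 marked 122 (2.56%), and none was removed except as an alternative. Alternatives changed limits on genes, mitochondrial share, rule genes, cell cycle share and low counts, the totals and the averaging.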

Additional observations from a re-analysis of the deposited data

Results flagged for a closer look

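Barcodes outside the filters also met the rest of the rule for chosen cells. Above the limit of 20% mitochondrial UMIs there were 50, with a median of 1739 UMIs and a median mitochondrial share of 28.7%. Of these 0 were cycling (up to 7.11%), 14 were below the cell cycle cut with an early gene and 36 had Vpreb3 alone, and Ms4a1 was found in 33. Among 530 barcodes with at least 200 and fewer than 500 genes 13 met the rule, at a median of 772 UMIs, and 10 of them had an early gene and 3 had Vpreb3 alone. Above 5% haemoglobin UMIs there were 7, at a median of 7359 UMIs, with 1 cycling, 2 with an early gene and 4 with Vpreb3 alone. None of these barcodes entered the comparisons, apart from the alternative without a mitochondrial limit.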

How the results depend on the processing

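No paired analysis was possible because the matrix is 1 sample and no test was made, and no replicate could be left out since its lanes cannot be separated. Under the alternatives that can change a ratio, 2089 ratios of single genes were compared with their main interval. Of these 1741 stayed within it and 337 left it. A further 11, of at least 2-fold in the main setting, changed sign. Sign changes of smaller ratios are counted among the 1741 and 337. Of 103 counts and shares 84 stayed within 1.5-fold or their interval. With at least 1000 genes there were 40 chosen cells, 67.5% of them cycling. Then 8 listed genes were lower against B cells without precursor UMIs and 19 against all other cells, 11 were higher and 10 lower in cycling cells, and 1 was higher in early-gene cells. Against B cells without precursor UMIs Bank1 came to 1.21, Cd38 to −0.21 and H2-Ob to 0.039, in cycling cells Cd79b to 0.12, Pax5 to 0.70 and Foxo1 to 2.48, and in early-gene cells Sec11c to −0.49. With at most 10% mitochondrial UMIs there were 42 chosen cells, 47.6% of them cycling, with 3 listed genes lower against B cells without precursor UMIs, 10 lower in cycling cells and 1 higher in early-gene cells. Ltb then came to 0.89, H2-Eb1 to 0.088 and H2-Ob to 1.02 in the contrast with those B cells, and Hmgb2 to −0.47 in early-gene cells. At 10 UMIs over both sides 45 listed genes were lower in cycling cells and 14 were higher and 41 lower in early-gene cells, where more genes are measured. A cell cycle cut of 1% gave a cycling share of 13.4%. Early-gene cells had 8 higher listed genes by the mean over cells, and, in alternatives added after seeing the data, 9 without cells holding RNA of other types and 8 without a mitochondrial limit. Apart from the count minimum, the cause was not tested. Depth limits the rare genes: Rag2 had 8 UMIs in all chosen cells, and a gene at 0 in the early-gene group could still have up to 35.9 CPM.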

Other observations

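Variable segments of immunoglobulin genes were rarely counted. Heavy chain segments had 8 UMIs in 8 chosen cells, all of different genes, and kappa segments had 14 UMIs in 13 chosen cells, led by Igkv1-135 with 4 UMIs in 4 cells. A second kappa segment was found in 1 cell.

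Ligands that precursors use in marrow were measured in the rest of the tissue. Cxcl12, the ligand of Cxcr4, had 1313 UMIs in 438 of 4416 other cells (37.9 CPM) and 264 CPM in endothelial cells, against 38.5 CPM in droplets of 1 to 20 UMIs. Il7, the ligand of Il7r, had 2 UMIs in 2 other cells (0.058 CPM), and Tnfsf13b, the ligand of Tnfrsf13c, had 82 UMIs in 74.

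Genes outside the lists that stood apart between groups of chosen cells were chosen after their values were seen. Asf1a, a histone chaperone, had 526 CPM in early-gene precursors against 40.5 CPM in Vpreb3-only cells, a log2 ratio of 3.70 (2.26 to 5.63). It was found in 63.6% against 7.27% of cells. Smarca4, the ATPase of a chromatin remodelling complex, had 360 against 81.0 CPM, a ratio of 2.15 (1.03 to 3.47). Ctss, a protease that processes the invariant chain Cd74, had 87.6 against 375 CPM, a ratio of −2.10 (−3.33 to −1.02). In cycling against non-cycling chosen cells Btg1, which restrains growth, had 299 against 1395 CPM, a ratio of −2.22 (−2.74 to −1.74), and Stmn1, a regulator of microtubules, had 1904 against 59.6 CPM, a ratio of 5.00 (4.17 to 5.97).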
